A study of Drosophila melanogaster with 43 samples.

Results

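The Rab genes of Drosophila melanogaster were followed through the mRNA libraries of a study of Orb and Orb2. These are the CPEB proteins of the fly, regulators of mRNA translation. Members were the genes whose symbol is Rab or RabX followed by a number. This gave 29 of 13792 genes in the tables of S2 cells, and the same number of 15602 genes in the head tables of replicates 1 to 4. S2 cells are a cultured fly line with features of blood cells. The Orb2B group held 2 libraries of S2 cells transfected with Orb2B, a form of Orb2, grown at 27 °C with 250 µM CuSO4 and 300 µg/ml hygromycin B. The background group held 2 libraries of untransfected S2 cells, also at 27 °C with 250 µM CuSO4 but without hygromycin. Orb2B and hygromycin therefore cannot be told apart. The head libraries came from flies labelled Orb2 WT-GFP and raised at 25 °C. Head extract was treated with biotinylated isoxazole (b-isox), a compound that pulls down low-complexity proteins and the RNA bound to them. RNA was then sequenced from 6 pellets and 6 supernatants. The labels give no age or sex of the flies and do not say whether replicates were separate cultures or animals. The p-values therefore cover only the spread between these libraries, which may be technical.

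Rab proteins are small GTPases that sit on the membranes of the secretory and endocytic pathways. In the GTP-bound state they recruit effectors such as motors and tethers, which move, dock and fuse vesicles. Exchange factors load GTP, GTPase-activating proteins speed its hydrolysis, and a prenyl anchor added with the help of the Rab escort protein holds the Rab on the membrane. In neurons, Rab3 and its relatives act at the synaptic vesicle, and in photoreceptors several Rabs carry rhodopsin to the light-sensing membrane.

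The labels were checked on the libraries first. The orb2 transcript was at 2509 and 2850 RPKM in Orb2B cells, against 7.50 and 8.73 RPKM in background cells. The 7 blood-cell markers found in the tables summed to 103 and 164 RPKM in Orb2B cells and to 219 and 258 RPKM in background cells. Of the 6 that were tested, 4 were lower in Orb2B cells and 0 higher, and He was at or below 0.566 RPKM in all 4 libraries. Hml, a defining marker of these cells, was at 0.0104 and 0.159 RPKM in Orb2B cells, against 10.1 and 5.50 RPKM in background cells. The part of this shift in the Rab values was not tested. The neuronal, photoreceptor, glial, fat body and muscle sets each held abundant markers in the heads, with sums given below. The glial sum was mostly Gs2, and repo, moody, Lsp2 and Act88F were far below the highest marker of their sets. Absolute depth could not be read from the files and counting intervals are left out. Relative to background replicate 1, low values placed Orb2B replicate 2 at a depth of 1.66, Orb2B replicate 1 at 0.982 and background replicate 2 at 0.783. These are bulk RNA values, in which fewer cells of a type and less RNA per cell cannot be told apart.

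In S2 cells, 20 of the 29 Rab genes had a mean of at least 1 RPKM and were tested. RabX6, Rab21 and Rab6 were higher in Orb2B cells, Rab7 and Rab14 were lower, and 15 did not pass. A gene was called at a limma adjusted p under 0.05 over all 7072 genes tested. Of all tested genes, 17.0% were called higher, 19.9% lower and 36.9% in either direction, and the 5 Rab genes of 20 were no larger a share than that. The median log2 fold change was 0.055 for the tested Rab genes and -0.0023 for all tested genes.

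RabX6, a divergent Rab for which no role is given here, had the largest change among the 20 tested genes. It was at 23.6 and 21.5 RPKM in Orb2B cells, against 8.44 and 9.70 RPKM in background cells. Both Orb2B libraries lay above both background libraries. The log2 fold change of RabX6 was 1.33 (SE 0.19, limma adjusted p = 0.0019), a fold of 2.51 on the scale of log2(RPKM + 0.5) after scaling. Its locus lies on chromosome 3L at 690517 to 691951 in build dm3.

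Rab6 serves traffic between endosomes, the Golgi and the endoplasmic reticulum. It was at 139 and 144 RPKM in Orb2B cells and at 83.2 and 88.4 RPKM in background cells. The groups did not overlap, and the log2 fold change was 0.78 (SE 0.16, limma adjusted p = 0.0096). Rab21, which acts on endosomes and in mammals in integrin traffic, was at 10.7 and 12.01 RPKM in Orb2B cells, against 5.87 and 6.87 RPKM in background cells. Its groups were also apart, with a log2 fold change of 0.84 (SE 0.19, limma adjusted p = 0.0115). Rab6 lies on chromosome 2L at 12107287 to 12109124 in dm3. The head entries of Rab21 lay on X at 22413976 to 22415095, or to 22415231 in head supernatant 3.

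Rab7 marks late endosomes and directs their fusion with lysosomes. It was at 20.7 and 25.1 RPKM in Orb2B cells, against 41.5 and 45.2 RPKM in background cells. Every Orb2B value was below every background value, and the log2 fold change was -0.85 (SE 0.17, limma adjusted p = 0.0069). Rab14, a Rab of endosomes and phagosomes, was at 29.2 and 35.7 RPKM in Orb2B cells and at 55.7 and 49.7 RPKM in background cells. The log2 fold change of Rab14 was -0.64 (SE 0.19, limma adjusted p = 0.0310). In dm3 the head entries of Rab7 lay on 3R at 19818734 to 19821174, or to 19821282 in head pellet 2. Those of Rab14 lay on 2L at 14355147 to 14358764, or to 14358983 in head supernatant 3.

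**Figure D1:**
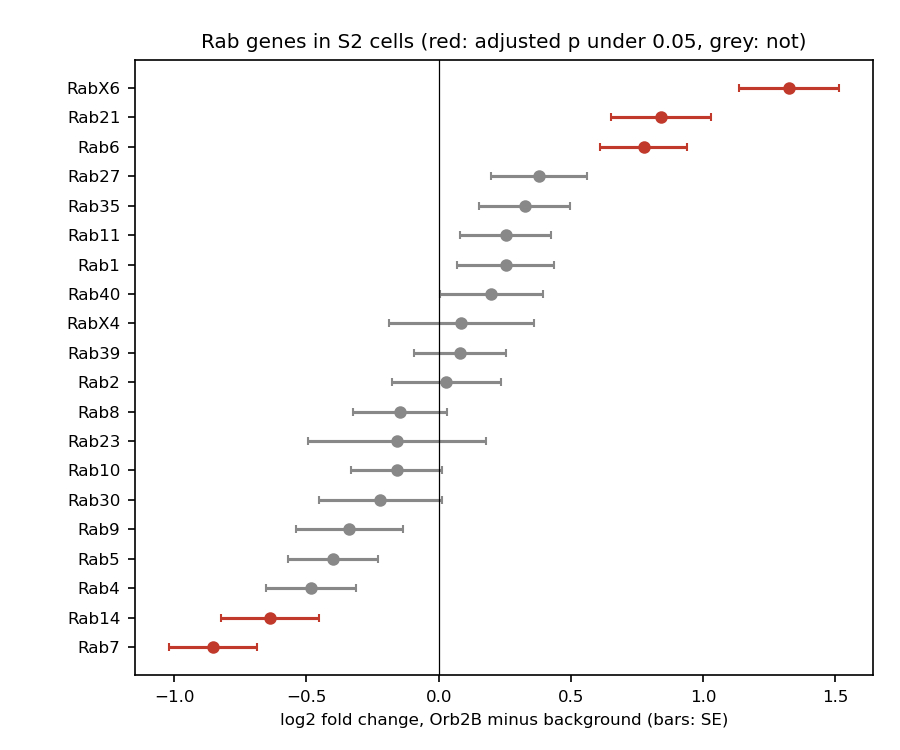
Log2 fold change (Orb2B minus background) of the 20 tested Rab genes in S2 cells with standard errors as bars and 2 libraries a group. RabX6, Rab21 and Rab6 lie to the right and Rab7 and Rab14 to the left of 0 in red, as the genes called at adjusted p under 0.05, and the other 15 are grey.

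The calls other than RabX6 depended on the Orb2B libraries; all 5 stayed called without either background library. Without Orb2B replicate 1, RabX6 alone was called among the Rab genes, and without Orb2B replicate 2 only RabX6 and Rab7 were. The log2 fold changes kept their signs: without Orb2B replicate 1 they were 0.75 for Rab6, 0.87 for Rab21, -0.77 for Rab7 and -0.55 for Rab14, with limma adjusted p from 0.103 to 0.273. Each of these fits leaves 1 library in the Orb2B group, which is then assumed to vary like the background group.

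Among the 15 that did not pass, Rab4 and Rab5 came nearest. Rab4, of fast recycling from early endosomes, was at 19.1 and 23.1 RPKM in Orb2B cells and at 29.9 and 31.6 RPKM in background cells (log2 fold change -0.48, SE 0.17, limma adjusted p = 0.0601). Rab5, the Rab of early endosomes, was at 36.5 and 45.5 RPKM in Orb2B cells and at 50.2 and 62.6 RPKM in background cells (log2 fold change -0.40, SE 0.17, limma adjusted p = 0.103). Of the 5 most abundant members in background cells, the 4 other than Rab6 did not pass. Rab11, of recycling endosomes, was at 196 and 209.8 RPKM in Orb2B cells and at 159 and 198 RPKM in background cells. Rab1, of transport from the endoplasmic reticulum to the Golgi, was at 105.0 and 104.6 RPKM in Orb2B cells and at 96.1 and 87.1 RPKM in background cells. Rab10, which in flies directs secretion of basement membrane proteins, was at 70.4 and 69.4 RPKM in Orb2B cells and at 81.1 and 81.6 RPKM in background cells. Rab2, of Golgi and late endosomal traffic, was at 70.3 and 76.5 RPKM in Orb2B cells and at 59.3 and 94.5 RPKM in background cells, where the background libraries enclosed the Orb2B ones. The other 9 tested members, Rab8, Rab9, Rab23, Rab27, Rab30, Rab35, Rab39, Rab40 and RabX4, had log2 fold changes from -0.34 for Rab9 to 0.38 for Rab27 and did not pass. Groups of 13 of the 20 tested Rab genes did not overlap after scaling, against 73.1% of all tested genes.

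**Figure D2:**
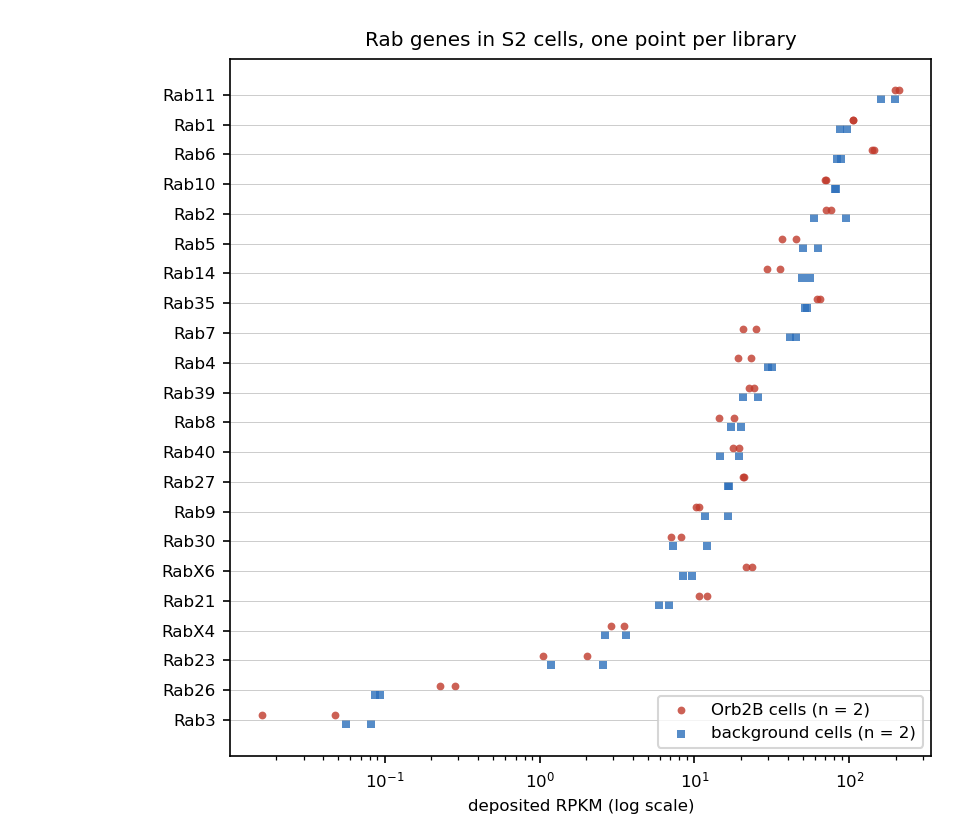
Deposited RPKM (log axis) of 22 Rab genes in each S2 library, Orb2B cells as red circles above background cells as blue squares (n = 2 each). RabX6 and Rab6 have both red points right of both blue ones, Rab7 and Rab14 have them left, and Rab26 and Rab3 lie at or under 0.285 RPKM.

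The other 9 Rab genes were too low for a test in S2 cells. Rab9D, Rab9Db, Rab9E, Rab9Fa, Rab9Fb, RabX2 and RabX5 were listed at 0 in all 4 libraries. Rab3, the synaptic vesicle Rab, was at 0.0162 and 0.0481 RPKM in Orb2B cells and at 0.0561 and 0.0815 RPKM in background cells. Rab26, which acts on secretory and synaptic vesicles in mammals, was at 0.285 and 0.227 RPKM in Orb2B cells, against 0.0934 and 0.0869 RPKM in background cells. The Rab9 copies on X are related genes, and whether reads that match several of them were kept is not given in the sources used here.

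In background S2 cells the order of the 5 highest levels was Rab11, Rab1, Rab6, Rab10 and Rab2, with means of 178 ± 27.8, 91.6 ± 6.39, 85.8 ± 3.70, 81.4 ± 0.399 and 76.9 ± 24.9 RPKM (SD, n = 2). The means of Rab1, Rab6 and Rab10 lay within the range of the 2 Rab2 libraries, so the order of these 4 is not settled. Of the 29, 15 were at 10 RPKM or more in each of the 4 S2 libraries.

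Genes that regulate or bind Rabs were read beside the family. The lists come from textbook roles, with no set test. The counts below stand beside the shares of all tested genes in S2 cells. These were 17.0% called higher, 19.9% lower and 36.9% in either direction. Of 11 tested exchange factors, 1 was higher in Orb2B cells and 0 lower. Crag, an exchange factor of Rab10 and Rab11, was at 45.0 and 44.3 RPKM in Orb2B cells and at 22.8 and 36.2 RPKM in background cells (log2 fold change 0.68, SE 0.21, limma adjusted p = 0.0375). Of 18 tested GTPase-activating proteins, 2 were higher and 2 lower. CG4552, a TBC-domain protein, had a log2 fold change of 0.91 (SE 0.19), CG6182 of -1.26 (SE 0.22) and plx of -1.09 (SE 0.25). The fourth was CG9339, or sky, at 1.03, named after its value was seen.

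Of 5 tested carriers and prenylation enzymes, 2 were higher and 1 lower in Orb2B cells. The betaggt-II gene, for the beta subunit of the Rab prenylating enzyme, was at 67.6 and 63.7 RPKM in Orb2B cells, against 30.0 and 27.0 RPKM in background cells (log2 fold change 1.25, SE 0.19, limma adjusted p = 0.0025). CG12007, which encodes the other subunit, had a log2 fold change of 0.77 (SE 0.17). Rep, the Rab escort protein that presents Rabs to this enzyme, was lower, at 5.05 and 5.41 RPKM in Orb2B cells and 7.33 and 12.03 RPKM in background cells (log2 fold change -0.74, SE 0.23, limma adjusted p = 0.0422). The pair of enzyme subunits and the escort protein thus differed in sign.

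Of 13 tested effectors and Rab-bound golgins, 3 were higher and 2 lower. Rip11, an effector of Rab11, was at 190.3 and 180.2 RPKM in Orb2B cells, against 59.9 and 74.6 RPKM in background cells (log2 fold change 1.52, SE 0.18, limma adjusted p = 0.00084). The golgin gene Gmap was at 32.7 and 33.4 RPKM in Orb2B cells, against 9.64 and 12.8 RPKM in background cells (log2 fold change 1.59, SE 0.18, limma adjusted p = 0.00080). The Rab11 effector nuf had a log2 fold change of 1.04 (SE 0.21). Rab11 itself had a log2 fold change of 0.25 (SE 0.17) and did not pass. The 2 lower ones, named after their values were seen, were Golgin84 (log2 fold change -0.65) and cbs (-0.80).

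Among tethers, of 8 tested exocyst genes 1 was higher and 1 lower in Orb2B cells, sec5 with a log2 fold change of 0.93 (SE 0.18) and exo70 of -1.24 (SE 0.22). Of 8 tested HOPS and CORVET genes, which tether endosomal membranes with Rab7 and Rab5, 1 was higher and 1 lower. The gene car rose by 0.88 (SE 0.20) and Vps33B, listed with them, fell by 1.63 (SE 0.24) on the log2 scale. Of 9 tested TRAPP genes, CG10153 fell by 1.38 (SE 0.31). Other small GTPases were read as a setting for the family. Of 7 tested Arf, Arl and Sar genes 3 were higher and 3 lower, and of 10 Ras, Rap, Ral, Rheb and Ran genes 2 and 2. Arf79F, the fly Arf1 of Golgi coat assembly, was at 63.4 and 87.2 RPKM in Orb2B cells, against 148.8 and 154.5 RPKM in background cells (log2 fold change -0.97, SE 0.18, limma adjusted p = 0.0059). Arf102F went the other way, at 9.08 and 10.4 RPKM in Orb2B cells, against 2.84 and 3.04 RPKM in background cells (log2 fold change 1.62, SE 0.20, limma adjusted p = 0.0011), as did Arf84F (log2 fold change 1.13, SE 0.22, limma adjusted p = 0.0064). Of the Ras group, Rheb, an activator of TOR signalling, fell by 0.96 (SE 0.17), RagA fell by 1.03 (SE 0.20) and Ric rose by 1.09 (SE 0.22) on the log2 scale.

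In fly heads the comparison was of the b-isox pellet with the supernatant, in replicates 1 to 4. Genes joined in any library by the authors' transcript assembly were summed into 1 feature, and 6 of the 29 Rab genes lie in such joined features. Of the Rab features, 22 had a mean of at least 1 FPKM and were tested. In limma, 0 passed at adjusted p under 0.05, where 1.97% of all tested features were called higher, 1.77% lower and 3.74% in either direction. At an unadjusted p under 0.05 there were 5, of which 4 were higher in the pellet, and 22.6% of all features passed that mark. Libraries with the same replicate number in the 2 fractions varied together, and with that number as a block 3 Rab features were called higher in the pellet and 0 lower. In that fit 6.98% of all features were higher, 7.56% lower and 14.5% called either way. The medians of the log2 difference were 0.080 for the Rab features and -0.0088 for all features.

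Scaled FPKM is the deposited FPKM divided by a factor for its library, 1.27 to 1.65 for pellets and 0.665 to 0.737 for supernatants. Rab14 had the smallest p of the Rab features in the fit without the block. It was at 80.8, 71.1, 81.0 and 75.9 scaled FPKM in pellets 1 to 4, against 47.6, 50.1, 48.4 and 58.2 scaled FPKM in supernatants 1 to 4. The lowest pellet lay above the highest supernatant. The log2 difference was 0.59 (SE 0.13, limma adjusted p = 0.0539 without and 0.0366 with the block), a fold of 1.51. In S2 cells the same gene had been lower in Orb2B cells; the comparisons ask different questions and were not tested against each other.

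The feature of RabX4 and its neighbour CG31357 was at 19.0, 17.1, 20.6 and 20.7 scaled FPKM in pellets, against 11.7, 8.97, 16.7 and 12.3 scaled FPKM in supernatants. These groups also did not overlap. The log2 difference was 0.65 (SE 0.20, limma adjusted p = 0.113 without and 0.0434 with the block). The own entry of RabX4, found in 5 of the 8 libraries, held 42.7% to 58.4% of the feature and had a log2 difference of 0.37 (SE 0.24, limma adjusted p = 0.432). That fit has no block and its libraries hold replicate 4 as the only complete pair, so it cannot be set against the blocked call of the feature.

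Rab26 was at 5.41, 4.59, 10.7 and 6.72 scaled FPKM in pellets, against 2.34, 2.62, 5.87 and 2.89 scaled FPKM in supernatants. Replicate 3 was the highest in both fractions, and the pellet was higher in 4 of 4 pairs although supernatant 3 overlapped the pellets. The log2 difference was 0.92 (limma, SE 0.34 and adjusted p = 0.163 without the block, SE 0.12 and adjusted p = 0.0236 with it), a fold of 1.89.

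Of the 5 neuronal markers, elav and Syt1 were called higher in the pellet. The markers brp, para and n-syb were not called, and n-syb had a log2 difference of -0.15. The neuronal markers summed to 336 to 560.5 scaled FPKM in pellets and to 201 to 355 scaled FPKM in supernatants. The glial markers summed to 155 to 246 scaled FPKM in pellets and 72.9 to 138 in supernatants, with 0 of 3 called, and the fat body markers to 1944 to 2352 and 2850 to 3405, with Yp1 called lower. The photoreceptor markers summed to 7958 to 32933 scaled FPKM in pellets and 7903 to 13819 in supernatants, with 0 of 4 called. They were uneven between libraries, with ninaE at 28250 in pellet 4. In pellets 1 to 4 trp was at 144, 144, 187 and 3512, and in supernatants 1 to 4 at 4278, 184, 3510 and 3330. The muscle markers summed to 343 to 619 and 375 to 4084, with 0 of 4 called and Mhc at 3546 in supernatant 4. The part of these cell types in the Rab values was not tested. Rab3 was at 1.84, 2.90, 6.31 and 3.21 scaled FPKM in pellets and at 1.64, 1.40, 4.85 and 2.64 scaled FPKM in supernatants. It was higher in the pellet in 4 of 4 pairs and did not pass in either fit (log2 difference 0.39, SE 0.42, limma adjusted p = 0.616 without the block). The features of Rab9, Rab10, Rab14, Rab26, Rab39, Rab40 and RabX4 were also higher in the pellet in every pair. Those of Rab1 and Rab11 were lower in every pair. These pairs were read on scaled FPKM. On deposited FPKM the feature of Rab1 was higher in the pellet in every pair, and that of Rab11 in replicates 2 to 4. The own entry of Rab39, scaled, was higher in the pellet in replicates 2 and 3 and lower in replicate 4. The share of all features with the same sign in every pair was not counted, so these lists mark nothing as particular to Rab genes.

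Rab10 was at 51.0, 50.6, 49.4 and 51.0 scaled FPKM in pellets and at 35.1, 31.5, 45.2 and 30.5 scaled FPKM in supernatants. The 4 pellets were close to each other and all above the supernatants. The log2 difference was 0.52 (SE 0.16) and did not pass in limma either without the block (adjusted p = 0.115) or with it (adjusted p = 0.0696). Together with Rab14 and RabX4 this made 3 of 22 tested features whose groups did not overlap, against 16.0% of all tested features.

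The feature of Rab11 and its neighbour ppan was the other way round. It was at 23.0, 28.6, 24.03 and 34.6 scaled FPKM in pellets, against 48.2, 57.6, 31.4 and 47.0 scaled FPKM in supernatants. The pellet was lower in every pair, with a log2 difference of -0.72 (SE 0.23, limma adjusted p = 0.120 without and 0.0538 with the block). The own entry of Rab11, fitted without the block, held 66.9% to 81.1% of the feature in 7 libraries and had a log2 difference of -0.48 (SE 0.27, limma adjusted p = 0.336).

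**Figure D3:**
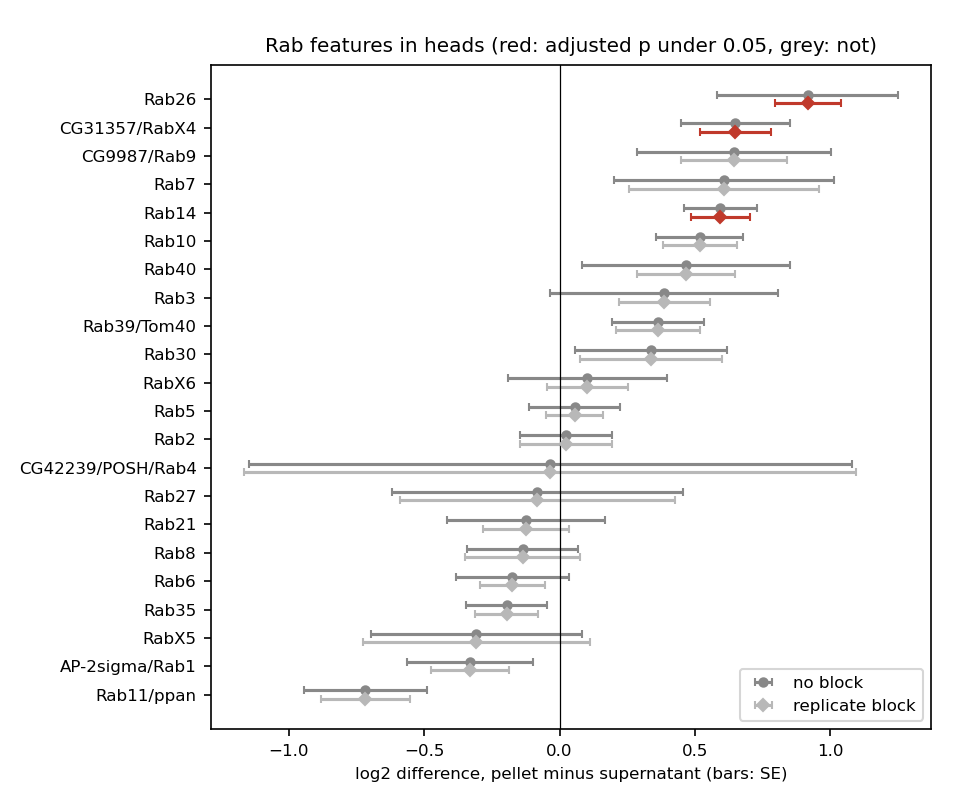
Log2 difference (pellet minus supernatant) of the 22 tested Rab features in heads, circles without and diamonds with the replicate block, bars the standard error of each fit and 4 libraries a fraction. Rab26, CG31357/RabX4 and Rab14 are red with the block, none is red without it, and Rab11/ppan is the lowest.

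Of the 5 highest Rab features in head supernatants, Rab14 (log2 difference 0.59) and Rab11 with ppan (-0.72) are described above. Those with higher means were Rab5, Rab35 and Rab1 with AP-2sigma. Rab5 was at 199, 141, 185 and 149.9 scaled FPKM in pellets and at 192, 156, 151 and 147 scaled FPKM in supernatants (log2 difference 0.056, SE 0.17). Rab35, which acts in endocytic recycling and on actin, was at 95.7, 98.6, 119 and 97.9 scaled FPKM in pellets and at 100.1, 135, 117 and 120.4 scaled FPKM in supernatants (log2 difference -0.20, SE 0.15). The feature of Rab1 and AP-2sigma was at 99.7, 74.4, 66.0 and 114 scaled FPKM in pellets and at 116, 127, 79.7 and 120.3 scaled FPKM in supernatants (log2 difference -0.33, SE 0.23), and the own entry of Rab1, present in 6 libraries, had a log2 difference of -0.058 (SE 0.29). Neither Rab5, Rab35 nor the feature of Rab1 and AP-2sigma passed in either fit. On scaled FPKM the feature of Rab1 and AP-2sigma was lower in the pellet in every pair.

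Rab7, lower in Orb2B cells, was at 23.2, 71.7, 29.0 and 16.8 scaled FPKM in pellets and at 18.6, 19.5, 23.1 and 17.4 scaled FPKM in supernatants. Pellet 2 alone stood high, and the log2 difference of 0.61 (SE 0.40) did not pass. In pellet 2 the Rab7 entry was an assembled locus ending at 19821282. In the other libraries it was the annotated gene, ending at 19821174. The part of this in the high value was not tested. Rab6 (log2 difference -0.17, SE 0.21), Rab21 (-0.12, SE 0.29) and RabX6 (0.10, SE 0.29), which were higher in Orb2B cells, did not pass in heads. Of the rest, Rab39 is only 7.29% to 12.9% of its feature with Tom40, and Rab4 never had an entry of its own and its feature was listed at 0 in pellet 1 and supernatant 4. Rab9 shared its feature with CG9987, where its own entry ranged from 0 to 87.5%. Without the block, the own entry of Rab9 had a log2 difference of 1.77 (SE 0.89, limma adjusted p = 0.288) against 0.64 (SE 0.36) for the feature, and that of Rab39 had 0.057 (SE 0.25) against 0.36 (SE 0.17). Rab2, Rab8, Rab27, Rab30, Rab40 and RabX5 had log2 differences from -0.31 for RabX5 to 0.47 for Rab40 and did not pass in either fit. Rab9D, Rab9Db, Rab9E, Rab9Fa, Rab9Fb, RabX2 and Rab23 were too low for a test.

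**Figure D4:**
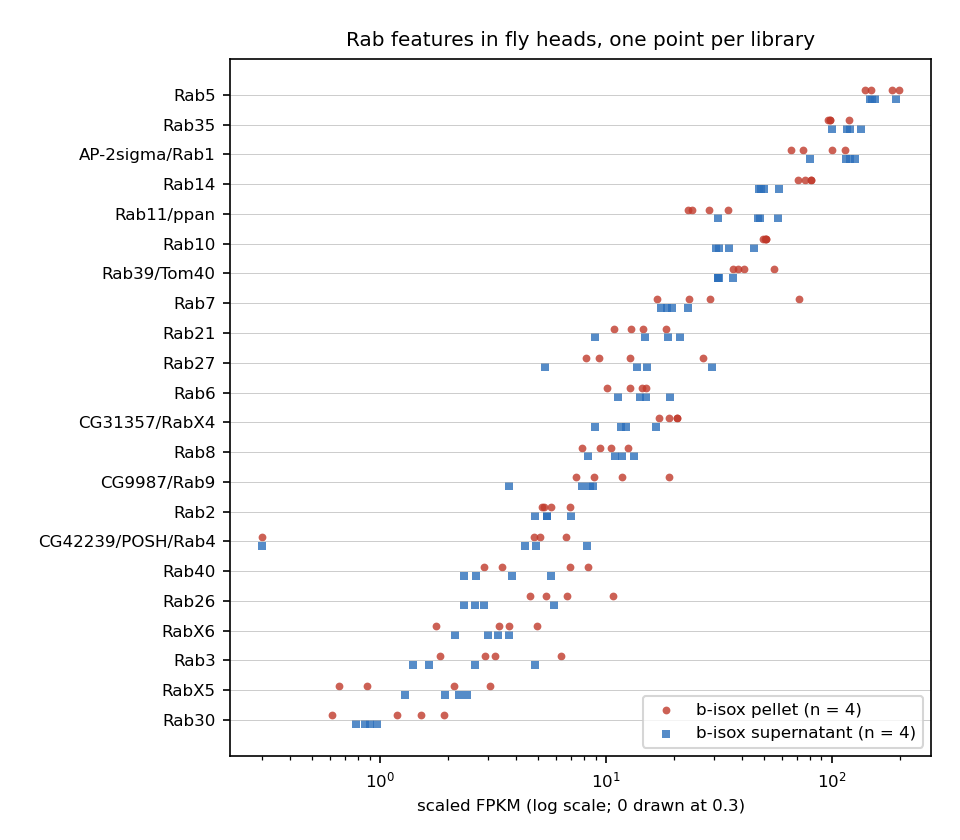
Scaled FPKM (log axis) of the 22 tested Rab features in each head library, pellets as red circles above supernatants as blue squares (n = 4 each). Rab14, CG31357/RabX4 and Rab10 have all red points to the right of all blue ones, and most other features overlap.

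Of the regulators in heads, 0 were called in any list without the block. With it, 3 of 71 regulator features were called, against the 14.5% of all features called in that fit: CG11727, a TBC-domain protein, CG34107/CG42795 and Rim, an active zone protein that binds Rab3, each higher in the pellet. Rim was at 101, 83.8, 110.4 and 195 scaled FPKM in pellets, against 40.0, 31.1, 54.3 and 64.3 scaled FPKM in supernatants. Its groups did not overlap, and the log2 difference was 1.34 (limma adjusted p = 0.0628 without and 0.0155 with the block).

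The order of Rab levels in head supernatants 1 to 4 differed from that in background S2 cells. In these supernatants the 5 highest features were Rab5 at 161 ± 20.6, Rab35 at 118 ± 14.2, Rab1 with AP-2sigma at 111 ± 21.2, Rab14 at 51.1 ± 4.86 and Rab11 with ppan at 46.1 ± 10.8 scaled FPKM (SD, n = 4). Rab5 lay above the others in all 4 supernatants, Rab35 overlapped Rab1 with AP-2sigma, and Rab14 overlapped Rab11 with ppan. Rab3, Rab26 and RabX5, near or at 0 in S2 cells, averaged 2.63 ± 1.57, 3.43 ± 1.64 and 1.97 ± 0.497 scaled FPKM in head supernatants; they were singled out after their values were seen. RPKM of S2 cells and FPKM of heads came from different processing, so no test was made across them.

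Head replicates 5 and 6 held assembled loci without gene names, and a locus was joined to a Rab feature where each covered at least 50% of the other. Joined loci were found for 24, 7, 21 and 15 of the Rab features in pellet 5, pellet 6, supernatant 5 and supernatant 6, and for 7 in all 4. The order of levels in them was not that of replicates 1 to 4. The deposited FPKM of Rab5 was 20.9 to 35.2 times that of Rab2 in supernatants 1 to 4, but 1.65 and 3.60 times in supernatants 5 and 6. The highest joined loci of supernatant 5 were Rab11 with ppan at 181 FPKM, Rab14 at 131 FPKM and Rab1 with AP-2sigma at 119 FPKM, with Rab5 at 85.5 FPKM. Those of supernatant 6 were Rab1 with AP-2sigma at 330.4 FPKM and Rab10 at 61.7 FPKM, with Rab5 at 46.1 FPKM and no locus joined to Rab11. Rab11 with ppan was highest in supernatant 5, as Rab11 was in background S2 cells, and Rab1 with AP-2sigma was highest in supernatant 6. Other ranks did not match. Rab14, number 7 in background S2 cells, came next to Rab11 in supernatant 5. Rab6, number 3 in those cells, was at 36.5 FPKM in supernatant 5, below Rab5. For Rab35 and Rab2 the ratio was 17.2 to 27.8 in supernatants 1 to 4, and 0.464 and 1.92 in supernatants 5 and 6. The cause was not tested. Rab14 was at 138 and 217 FPKM in pellets 5 and 6, against 131 and 60.1 FPKM in supernatants 5 and 6. With these libraries added over 2711 features and the library series as a covariate, the log2 difference of Rab14 was 0.82 (limma adjusted p = 0.0148). Rab14 was the only one called of the 7 Rab features tested in that fit. The counts over all features are in the last section.

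**Figure D5:**
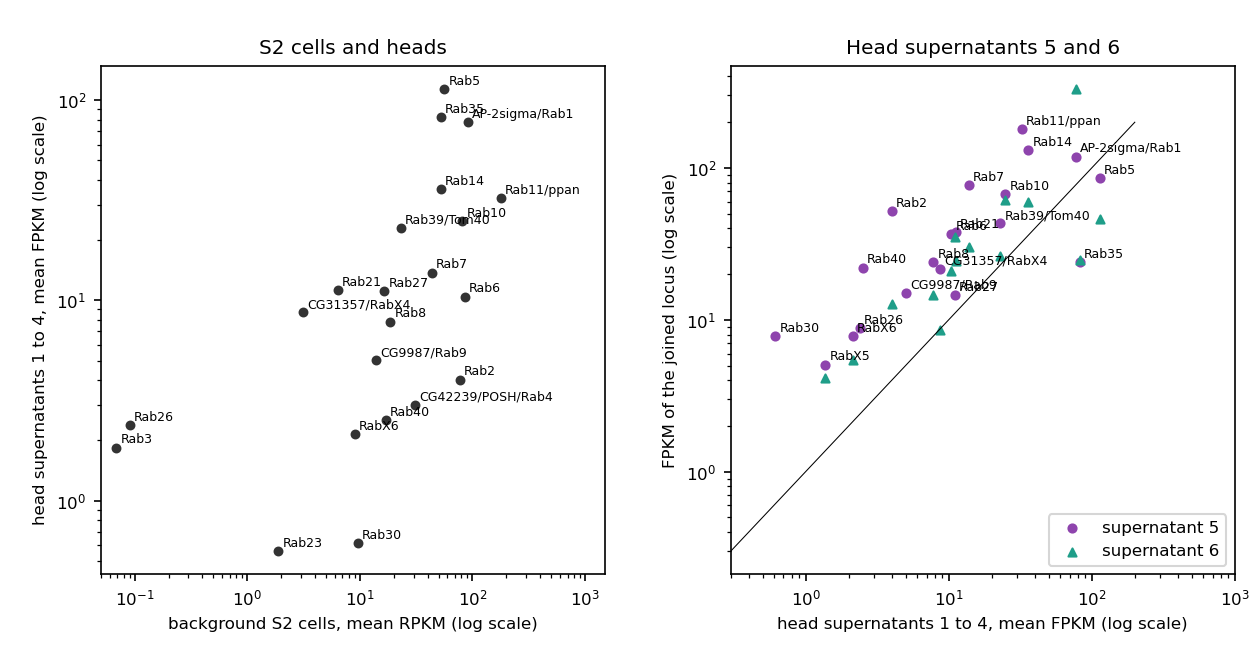
Left, mean RPKM in background S2 cells (n = 2) against mean FPKM in head supernatants 1 to 4 (n = 4), both on log axes, for Rab features above 0.01 on both. Right, mean FPKM of supernatants 1 to 4 against the locus joined to each feature in supernatants 5 and 6, with the line of equal values, where Rab5 and Rab35 lie below the line and Rab2 and Rab40 well above it.

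A further 4 Rab genes carry older symbols in the tables and fall outside the rule. Rab-RP3, which the reference name table gives as Rab19, was at 13.6 and 13.9 RPKM in Orb2B cells, against 23.0 and 26.0 RPKM in background cells (log2 fold change -0.75, limma adjusted p = 0.0130). The gene chrw, or RabX1, was at 23.2 and 26.1 RPKM in Orb2B cells, against 41.8 and 49.8 RPKM in background cells (log2 fold change -0.82, limma adjusted p = 0.0075). Rab-RP4, or Rab18, had a log2 fold change of -0.34 and did not pass, and ltd, or Rab32, was too low for a test in S2 cells. None of the 4 passed in heads in limma, with or without the block, where chrw came nearest (log2 difference 0.46, adjusted p = 0.287 without and 0.0617 with the block).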

How the data were processed

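RNA was measured in 4 S2 libraries and 12 head libraries. The authors deposited RPKM per gene for S2 cells and FPKM per gene or assembled locus for heads. Build dm3 and CASAVA 1.9.1 are in the submitters' processing notes for both, with Novoalign, Bowtie and cutadapt for S2 cells and TopHat and Cufflinks for heads. Each library was divided by its median ratio to the geometric mean. Where the deposited mean reached 1 or more, log2 of the scaled value plus 0.5 went into a two-sided limma fit (version 3.58.1, R 4.3.3) with mean-variance trend. The p-values were adjusted over all tested genes by Benjamini-Hochberg. The pseudocount shrinks the fold changes of low genes. Head replicates 1 to 4 were used, with exact 0 kept; genes joined in any library were summed, which made 14410 features with a value in all 8 libraries. In 604 of 696 low S2 genes (86.8%) the values were whole multiples of a read, within a tolerance of 0.03; no count test was run. Head pairs correlated (same-number r of 0.166, 0.191, 0.326 and 0.196 in replicates 1 to 4, though another number reached 0.144 and 0.113 for replicates 1 and 2), so the replicate block stands beside head results. The members, gene lists and named genes were chosen with earlier results of these data known. Named with values per library are the members called in either comparison and the 5 highest in each of background S2 cells and head supernatant. Outside that rule, values per library are also given for Rab3 and for Rab4, which came near a call in S2 cells. Of each list up to 3 called genes with the smallest p are named, some by fold change alone. The fit was tested on simulated data. Crosslinking libraries were not analysed here. The result of 1 gene list is not reported here.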

Additional observations from a re-analysis of the deposited data

Results flagged for a closer look

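In 3 of the 44 groups of 4 head libraries checked, 1 library stood apart from the others by more than the 95% critical value of Dixon's ratio; chance alone does this in about 1 in 20 groups. Rab26 was at 5.87 scaled FPKM in supernatant replicate 3, against 2.34 to 2.89 in the other supernatants. Rab35 was at 119 scaled FPKM in pellet replicate 3, against 95.7 to 98.6 in the other pellets. The feature of Rab39 and Tom40 was at 36.6 scaled FPKM in supernatant replicate 2, against 31.3 to 31.8 in the other supernatants.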

How the results depend on the processing

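In S2 cells RabX6 was called in all 12 alternatives. Of the Rab genes, the 3 higher and 2 lower calls became 3 and 1 with no minimum, where Rab14 had a limma adjusted p of 0.0534, and Rab4 joined at a minimum of 5. Leaving out each library gave 1 to 4 Rab genes higher and 0 to 5 lower, and 472 to 1663 of all genes higher and 783 to 1671 lower. The lowest of these counts come from leaving out Orb2B replicate 1, and the highest from leaving out background replicate 1, where Rab27 joined the higher and Rab4, Rab5 and Rab30 the lower genes. The S2 numbers do not pair (same-number r of 0.050), and the replicate block gave the same Rab counts, 3 and 2, with 1429 and 1611 of all genes.

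In heads the replicate block gave 3 Rab features higher, with 609 of all features higher and 659 lower. Rab14 was the 1 feature called with a pseudocount of 0.1 (limma adjusted p = 0.0497), with a minimum of 5 (0.0289) and with replicates 5 and 6 added, where 7 Rab features were tested. Of all features these settings called 182 higher and 157 lower of 8720, 217 and 182 of 5529, and 126 and 157 of 2711. Over the 15 alternatives its adjusted p ran from 0.00065 to 0.314. Quantile normalization gave 101 of all features lower. The values as deposited, unscaled, shifted the median of all features by 0.873 and gave 4526 higher and 40 lower, with 16 Rab features higher and 0 lower. There all 9 Rab features with a negative log2 difference became positive, 0.27 to 0.88, among them Rab6, Rab8 and Rab35 with called values of 0.79, 0.82 and 0.80. Without each replicate, 16 to 102 of all features were higher and 45 to 107 lower, and 0 Rab features were called. The entries of single joined Rab genes were tried after seeing the data. Members under a mean of 1 were not tested.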
